A study of Homo sapiens with 12 samples.

Results

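The genes described here write, read or recruit histone H3 lysine 9 methylation: 6 H3K9 methyltransferases (SUV39H1, SUV39H2, SETDB1, SETDB2, EHMT1 and EHMT2), 3 HP1 genes (CBX1, CBX3 and CBX5) and TRIM28. They are 10 of 20037 protein-coding genes on the autosomes, X and Y in the RefSeq GRCh38.p14 gene table. They were taken as a list, and a site belonged to a gene when its summit lay inside the gene or within 10 kb of it. The study measured chromatin accessibility by ATAC-seq, in which a transposase cuts open DNA, in HT1080 cells, an established human fibrosarcoma line. The cells spent 48 h migrating in matrices of rat tail type-I collagen of 0.3, 1.0 or 1.7 mg/mL, called low, medium and high, each represented by 4 of the 12 libraries. Every group, the lowest concentration included, received 20 µM GM6001, a broad metalloproteinase inhibitor. The peaks analysed came as 1 list for the whole series, in which no column named a library or a concentration, so no value below compares concentrations, none has a replicate spread, and the depth per library is unknown.

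Methylation of H3 lysine 9 marks silent heterochromatin. SUV39H1 and SUV39H2 place the trimethyl mark mainly at pericentromeric repeats, SETDB1 places it at retroelements and silent genes, and EHMT1 and EHMT2 (also called GLP and G9a) work as a pair to place the mono- and dimethyl marks. The HP1 proteins bind the methylated tail through a chromodomain and compact or anchor the chromatin, and TRIM28 (KAP1) is the scaffold that KRAB zinc finger proteins use to bring SETDB1 and HP1 to their targets.

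The promoter sequences that the findings turn on are given first, from RefSeq (GRCh38.p14), 5′ to 3′ on the gene's strand. Each runs for up to 250 bases and ends just before a listed start; those of SETDB2 and EHMT2 were shortened where they reach CAB39L and C2, the next coding genes. Capitals mark exact matches to the motifs described further below. SUV39H1 is shown at both of its listed starts because only the downstream one had a summit within 1000 bp. SETDB2 is shown because its summit had the highest enrichment of the group, SUV39H2 for its CREB match and CBX5 for its several matches. CBX3 is shown for the promoter it shares with a neighbour, and EHMT2 because no summit lay near its start.
SUV39H1 upstream start, chrX:48695304-48695553, plus strand: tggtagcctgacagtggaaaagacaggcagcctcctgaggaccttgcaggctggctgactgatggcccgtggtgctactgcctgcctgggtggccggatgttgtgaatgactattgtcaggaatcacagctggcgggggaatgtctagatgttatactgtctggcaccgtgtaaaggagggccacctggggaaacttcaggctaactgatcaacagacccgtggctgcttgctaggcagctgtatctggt
SUV39H1 downstream start, chrX:48696484-48696733, plus strand: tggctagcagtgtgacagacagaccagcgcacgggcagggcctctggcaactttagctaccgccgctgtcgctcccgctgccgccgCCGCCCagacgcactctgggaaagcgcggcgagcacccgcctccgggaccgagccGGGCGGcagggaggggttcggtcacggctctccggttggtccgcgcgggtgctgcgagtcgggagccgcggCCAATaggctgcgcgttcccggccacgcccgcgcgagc
SUV39H2, chr10:14878616-14878865, plus strand: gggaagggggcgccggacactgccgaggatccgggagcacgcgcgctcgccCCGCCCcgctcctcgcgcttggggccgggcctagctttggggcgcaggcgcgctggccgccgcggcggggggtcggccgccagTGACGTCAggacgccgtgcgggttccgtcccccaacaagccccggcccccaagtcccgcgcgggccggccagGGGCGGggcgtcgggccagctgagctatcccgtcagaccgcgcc
SETDB2, chr13:49444065-49444273, plus strand: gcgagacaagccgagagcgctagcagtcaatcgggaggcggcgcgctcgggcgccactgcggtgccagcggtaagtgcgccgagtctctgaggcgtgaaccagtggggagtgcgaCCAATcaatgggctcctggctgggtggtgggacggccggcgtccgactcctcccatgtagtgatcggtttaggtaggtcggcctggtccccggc
EHMT2, chr6:31897699-31897782, minus strand: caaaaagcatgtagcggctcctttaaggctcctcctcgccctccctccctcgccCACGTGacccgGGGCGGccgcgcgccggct
CBX3, chr7:26201193-26201442, plus strand: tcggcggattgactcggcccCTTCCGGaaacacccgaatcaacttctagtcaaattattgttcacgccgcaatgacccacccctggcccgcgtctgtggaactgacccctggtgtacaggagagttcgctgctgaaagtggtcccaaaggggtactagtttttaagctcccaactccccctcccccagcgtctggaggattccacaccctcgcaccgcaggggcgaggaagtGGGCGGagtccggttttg
CBX5 upstream start, chr12:54280123-54280372, minus strand: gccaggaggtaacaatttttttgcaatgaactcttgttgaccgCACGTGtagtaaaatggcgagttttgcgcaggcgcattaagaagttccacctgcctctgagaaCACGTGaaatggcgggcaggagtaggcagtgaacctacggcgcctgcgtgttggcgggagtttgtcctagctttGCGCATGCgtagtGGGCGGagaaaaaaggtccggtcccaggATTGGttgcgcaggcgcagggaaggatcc
The summit fell on base 167 of the SUV39H1 downstream sequence, base 117 of SUV39H2, base 94 of SETDB2, base 204 of CBX3 and base 38 of CBX5. These are the strongest summits inside each printed stretch.

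All 10 genes had at least 1 summit inside the gene or within 10 kb, where 89.8% of all protein-coding genes did. The 10 genes held 67 of the 188019 summits of the list, in 51 intervals. The deposited enrichment, the authors' fold of fragments at a summit over the local background, had its highest value per gene between 10.4 and 18.1, with a median of 12.7, against a median of 12.4 over the 17996 coding genes with a summit. A summit lay inside the gene itself in 7 of the 10 genes and in 66.1% of coding genes. The number of summits per gene ran from 1 for SUV39H2 and EHMT2 to 34 for EHMT1, with a median of 3 here and 3 over all coding genes. By both measures the medians of the group lay close to those of all coding genes.

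A summit lay within 1000 bp of a start in 9 of the 10 genes, against 65.9% of all coding genes; EHMT2 was the exception. No start of TRIM28 is listed, so either end of that gene was used, and among the 9 genes with a listed start the count was 8, against 67.6% of 15842 coding genes with one. The 14 summits near starts had a median enrichment of 11.2, and their median pileup, the number of overlapping fragments at the summit, was 1608. The 33 summits elsewhere inside the genes had medians of 2.66 and 67, and the 20 in the flanks had 4.00 and 373. Accessible DNA at these genes was strongest near starts by these medians, and 29 of the 33 sites elsewhere in the gene bodies belonged to EHMT1.

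**Figure D1:**
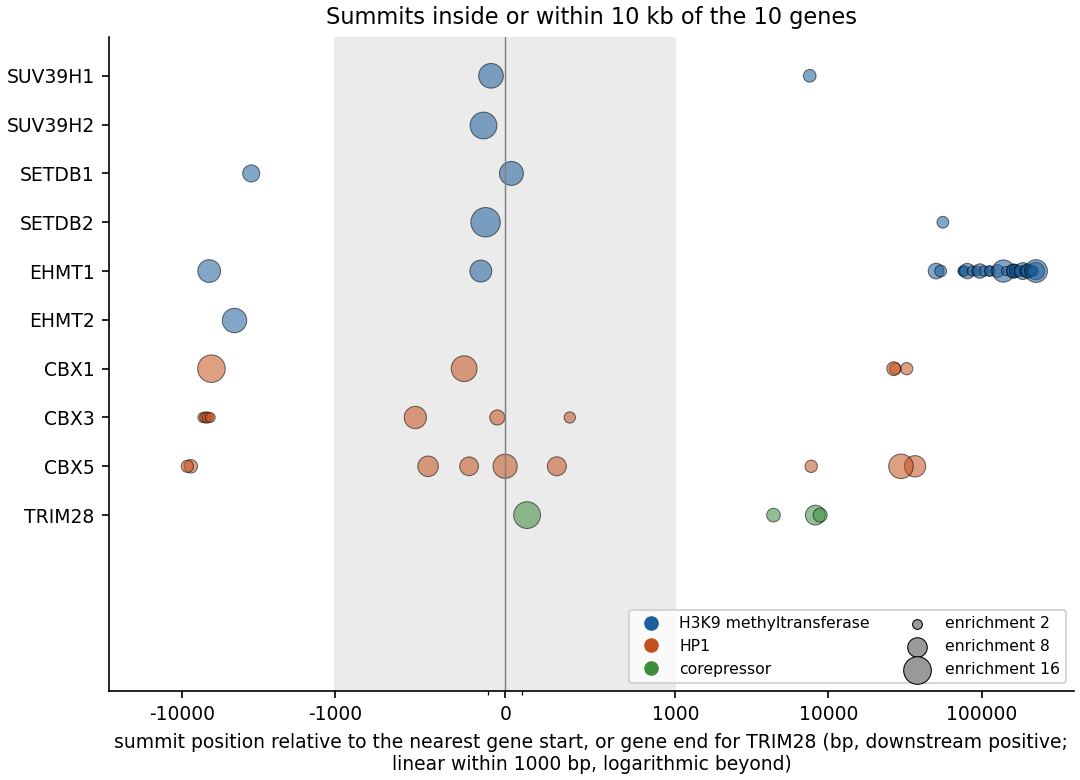
Each circle is 1 of the 67 summits, placed by its distance from the nearest gene start in bp (linear within 1000 bp, logarithmic beyond; gene ends for TRIM28), with the gene in rows and circle area proportional to enrichment. A summit falls in the grey band of 1000 bp either side of a start in every row except that of EHMT2, and EHMT1 carries a long series of small circles downstream.

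Among the methyltransferases, SETDB2 had the strongest site. SETDB2 is a relative of SETDB1 with a divided SET domain. Its start summit, at 49444158 on chromosome 13, lay 116 bp before the start, and was enriched 18.1-fold (−log10 q 2717). Its pileup was 3199 against a local background of 175.7. It ranked 306 of the 13207 coding genes with a start summit by enrichment (percentile 97.7). The same start is listed for SETDB2-PHF11, a readthrough gene. The summit also fell on base 94 of the printed stretch, which begins at the edge of the neighbouring coding gene CAB39L. It was thus nearer to that edge than to the SETDB2 start, and the site cannot be assigned to SETDB2 alone. Its other summit lay 5131 bp past the gene and was weak (enrichment 2.88, pileup 67).

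SUV39H2 had a single summit, the only site in the gene and its 10 kb flanks. It lay at 14878732 on chromosome 10, 134 bp before the start. Its enrichment of 15.0 stood at percentile 76.5 among coding starts and its pileup, 1903, at percentile 84.9. It was 73 bp from the start of SUV39H2-DT, a divergent noncoding transcript read from the other strand. A gene with exactly 1 summit in this window was not rare: 13.4% of coding genes had 1.

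SUV39H1, on chromosome X, has 2 listed starts, and they differed in their distance to the nearest summit. The summit at 48696650 lay 84 bp before the downstream start and 1096 bp past the upstream start, with 915 overlapping fragments against a background of 70.9, an enrichment of 12.7. No summit lay within 1000 bp of the upstream start. The interval of the summit at 48696650 began at 48696087, which is within 1000 bp of the upstream start. A window of 2.5 kb places that summit near both starts. The window of the downstream start, from 250 bases before to 50 after it, held 42 CpG dinucleotides (percentile 92.5 of 22199 coding promoter windows) and that of the upstream start held 7 (percentile 23.9). A second, weak summit at 48704271 inside the gene was enriched 3.35-fold at a pileup of 76. Where either end of the gene is used in place of its listed starts, SUV39H1 has no summit near an end, and the count of open genes falls to 8.

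SETDB1 also has 2 listed starts, 100 bp apart, and 1 summit served both. It lay at 150926299 on chromosome 1, 36 bp past the first start and 64 bp before the second, at a pileup of 1134, enriched 11.97-fold. The start of LOC107985204, a noncoding transcript on the other strand, was 42 bp from the summit. At 597 bp the interval was the shortest among the start intervals of the group (percentile 14.6 among coding genes). A further summit 3537 bp upstream of SETDB1 was enriched 6.12-fold at a pileup of 585.

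EHMT1 differed from the others in the number of its sites. Its start summit, 144 bp before the start at 137618861 on chromosome 9, was enriched 10.0-fold at a pileup of 823, the lowest enrichment of a strongest start summit in the group (percentile 38.2). It lay 34 bp from a start of ARRDC1-AS1, which is read from the other strand. Within the 217123 bp of the gene there were 29 summits, or 13.4 per 100 kb, against a median of 2.81 over 1270 coding genes of 150 to 300 kb, of which 15 had a higher density. With summits of a −log10 q of at least 10, 14 remained inside the gene, or 6.45 per 100 kb against a median of 2.02, and 63 genes had a higher density.

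Most of the sites inside EHMT1 were weak. Their highest enrichment was 10.4 and their median 2.53, and 26 of the 29 were below 5. The strongest, at 137757882, was 138877 bp past the start, near the start summit in enrichment but with a pileup of 319 against 823. The first site inside the gene was 50445 bp past the start, and 20 of the 29 lay in the part of the gene beyond its midpoint. Beyond the gene, a pair of summits in 1 interval 9159 and 9736 bp past its end had enrichments of 6.41 and 10.8. The strongest upstream flank summit (enrichment 10.8, pileup 1236), 6658 bp before the start, lay inside the neighbouring gene ARRDC1.

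**Figure D2:**
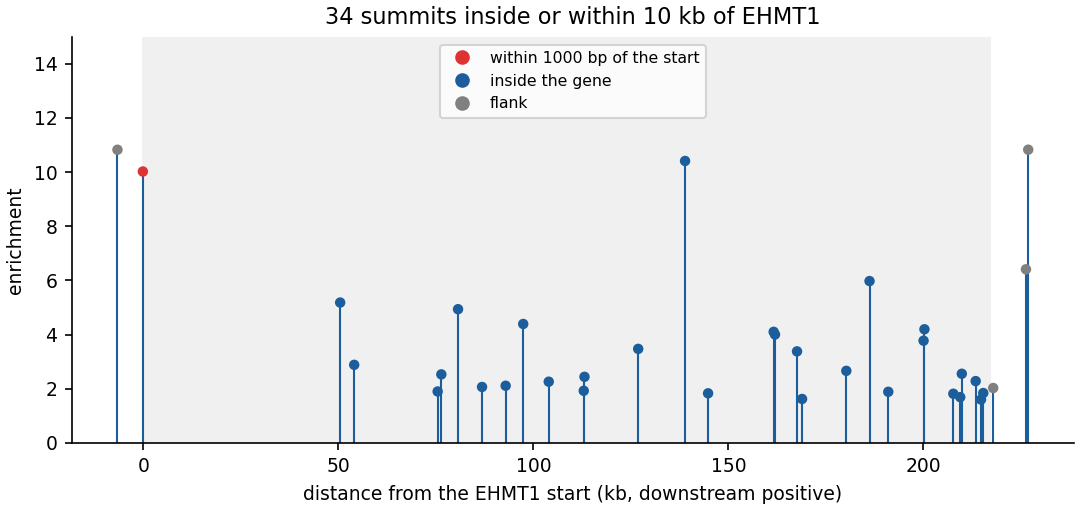
Vertical lines give the enrichment of each of the 34 EHMT1 summits against distance from the gene's start in kb, with the gene shaded; colours mark the start, the gene body and the flanks. A single site inside the gene, at an enrichment of 10.4, reaches the height of the start summit at 10.0, and no summit lies in the first 50 kb after it.

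EHMT2, the partner of EHMT1, was the gene without an open start. Its start is at 31897698 on chromosome 6, on the minus strand, in the major histocompatibility region, and the start of the complement gene C2 lies 85 bp away on the other strand. The nearest summit, at 31902268, was 4570 bp upstream, enriched 12.5-fold with 384 fragments against a background of 29.8. That summit lay 182 bp from the start of ZBTB12, a zinc finger gene, so the only site in the 10 kb window of EHMT2 was at another gene's start. On the other side the nearest summit, at 31863660, lay beyond the far end of the gene, and the strong summit next to it, 34743 bp downstream of the EHMT2 start and 134 bp from a start of NEU1, was enriched 15.8-fold at a pileup of 527. The 38608 bp between the summits on either side held the listed starts of EHMT2, EHMT2-AS1, SLC44A4 and C2.

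The reference also holds alternate copies of this region, so these were searched for EHMT2. The list carried 808 summits on 13 alternate sequences of chromosome 6. No gene table for them was used, so they were placed by summit spacing: for 7 sequences, 9 to 28 pairs of summits shared 1 offset, within 300 bp, with the 29 summits around the gene on the primary chromosome. The other 6 could not be placed this way. Of the 7 placed copies, 0 had a summit within 1000 bp of the expected EHMT2 start and 0 within 2.5 kb. The upstream summit recurred on 4 copies, 4578 to 4769 bp from the expected start, with enrichments of 11.5 to 13.5 and pileups of 342 to 391. The strong summit on the NEU1 side recurred on 6 copies, 34553 to 34743 bp from the expected start, with pileups of 503 to 559 against 527 on the primary sequence and enrichments of up to 19.7. On the remaining copy the nearest downstream summit (enrichment 15.9, pileup 517) lay at 32818 bp, outside the 300 bp used for matching, and was not matched to it. How reads were divided among these near-identical copies is not given in the sources used here, and its part in the missing EHMT2 summit was not tested.

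**Figure D3:**
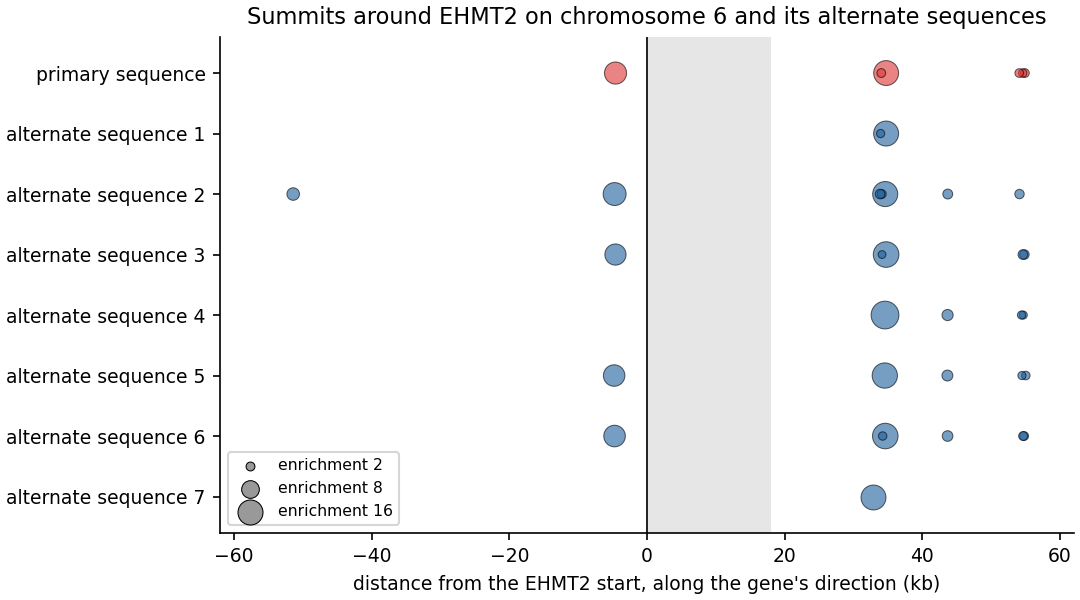
Summits within 60 kb of the EHMT2 start, in kb along the gene's direction, on the primary chromosome 6 (red) and on 7 alternate sequences (blue), with circle area proportional to enrichment and the gene shaded. The rows are all empty at the start and through the gene, and every row carries a large circle on the downstream side, 32818 to 34743 bp from the start.

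The 3 HP1 genes were all open at their starts, and for CBX3 and CBX5 the open interval also held a listed position of a neighbouring hnRNP gene, a start of HNRNPA2B1 and a gene end of HNRNPA1. CBX3 encodes HP1 gamma, the HP1 form also found in euchromatin. Its start lies 697 bp from that of HNRNPA2B1, an RNA-binding protein gene read from the other strand, and 1 interval of 2098 bp, from 26200170 to 26202267 on chromosome 7, covered both. The interval held 3 summits with enrichments of 10.4, 4.77 and 2.65 and pileups of 2864, 1313 and 728. The strongest lay 168 bp from the HNRNPA2B1 start and 529 bp before the CBX3 start. The summit nearest to CBX3, 47 bp before its start, was the one with an enrichment of 4.77, so a window of 500 bp lowers the value for CBX3 from 10.4 to 4.77.

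CBX5 encodes HP1 alpha. Its upstream start, at 54280122 on chromosome 12, lay in an interval of 1713 bp that also held an end of HNRNPA1, 604 bp from the CBX5 start. The 3 summits of this interval were 303 bp past and 213 and 454 bp before the CBX5 start, with enrichments of 7.54, 7.34 and 8.82 and pileups of 1962, 1911 and 2296. As at CBX3, the strongest was the one nearest to the hnRNP gene, 150 bp from its end. Counting for each gene only the interval of its most enriched start summit, 3.56% of the 13207 coding genes with a start summit had 3 or more summits there. CBX3 is in that count, and CBX5 is not, because its most enriched start summit was the internal one described next.

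A second, separate site lay at the internal starts of CBX5, listed at 54259586 and 54259545. Its summit, at 54259546, was 1 bp from the latter, enriched 12.3-fold at a pileup of 663. By enrichment this internal site was the stronger, and by pileup the upstream interval was, since its local background was 259.3 fragments at the strongest summit against 53.2 at the internal site. The internal windows held 4 and 6 CpG dinucleotides (percentiles 14.5 and 21.4), the fewest among the windows of the group, whereas the upstream window held 25. Near the other end of CBX5, a summit 1156 bp past the gene had an enrichment of 12.7, the highest in the window.

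CBX1 encodes HP1 beta. Its start summit, at 48101428 on chromosome 17, was 242 bp before the listed start, enriched 13.9-fold at a pileup of 1014. The strongest summit in its window (enrichment 15.9, pileup 1163) was 6143 bp outside the gene and 47 bp from a start of SNX11, a sorting nexin gene. A pair of summits inside CBX1 had enrichments of 2.83 and 3.99. No start of another gene was listed within 1000 bp of the CBX1 start summit.

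TRIM28 had the highest pileup of the group. The summit at 58544192 on chromosome 19, 128 bp inside the gene from its end at 58544064, held 4564 overlapping fragments and was enriched 15.0-fold (−log10 q 3518). An end of RN7SL525P, a pseudogene, lay 614 bp from it. By pileup it ranked 81 of 13207 coding genes (percentile 99.4), and by enrichment 3120 (percentile 76.4). Its local background was 303.9 fragments (percentile 98.7), and the remaining 3 summits in its window had backgrounds of 372.4 to 382.7. These 3 lay 4372 to 8825 bp past the gene, near the starts of CHMP2A, UBE2M and MZF1-AS1, the strongest of them enriched 8.24-fold.

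The order of the genes depended on the measure. By enrichment near the start, 7 of the 9 genes with a start summit were above the median of 11.9 for coding genes with one, and 1 (SETDB2) was in the top 10%. By the highest pileup near the start all 9 were above the median of 768, and 4 were in the top 10%: TRIM28 with 4564, SETDB2 with 3199, CBX3 with 2864 and CBX5 with 2296. The CBX3 and CBX5 values came from summits nearer to HNRNPA2B1 and HNRNPA1 than to the start of the member. The summit 47 bp before the CBX3 start had a pileup of 1313. CBX3 showed the gap most plainly, at percentile 40.1 by enrichment and 95.2 by pileup, with a local background of 275.1 fragments. The background that enters the enrichment was 20.3 fragments genome-wide, and all 14 start summits of the group had a local background above it. So did most coding genes with a start summit, whose lower quartile was 37.0 fragments. Taking for each gene only the start summit with the highest enrichment, the median background was 93.8 fragments over the 9 genes and 63.8 over all coding genes with a start summit.

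**Figure D4:**
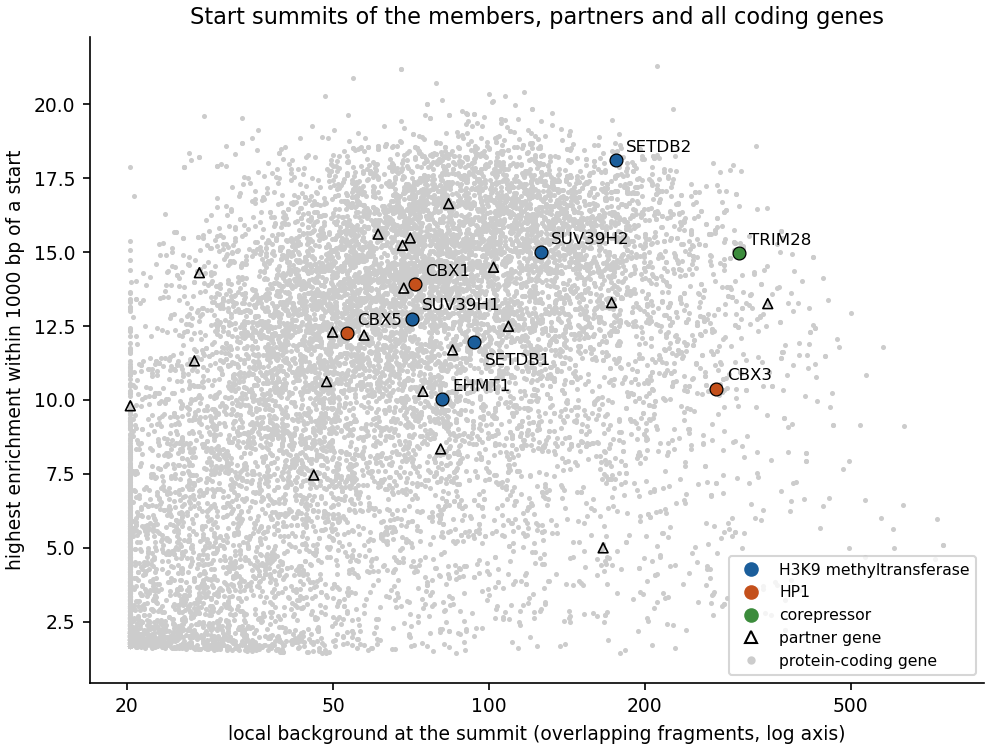
For each gene, the highest enrichment within 1000 bp of a start is plotted against the local background at that summit in overlapping fragments (log axis), with 13207 coding genes in grey, 20 partner genes as triangles and the 9 members named. TRIM28 and CBX3 lie far to the right, at 303.9 and 275.1 fragments, and SETDB2 is the highest member at 18.1.

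CpG content was compared with accessibility at each listed start, over windows from 250 bases before to 50 after it. The 13 windows of the 9 genes with a listed start held 4 to 51 CpG dinucleotides, with the most at EHMT1 (percentile 98.7). Across all 22199 coding windows the median was 21, and 62.7% had a summit within 1000 bp. EHMT2 had 25 CpG dinucleotides, the same as the upstream window of CBX5, which had 3 summits near it. Among the 9185 coding windows with at least as many as EHMT2, 85.2% had a summit within 1000 bp, and among the 13014 with fewer, 46.7% had 1. The 9185 windows had a median of 33 CpG dinucleotides, so EHMT2 with 25 stood at their lower edge. The share for windows near 25 alone was not taken.

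Short motifs were searched on both strands of these windows, as exact letters. The SP/KLF box GGGCGG was present in 7 of the 13 windows, in 7 of 9 genes, where 56.3% of all coding windows held it and 70.2% of those with a summit did. The NFY box CCAAT was found in 5 of the 13 windows, in 3 genes (34.7% of coding windows). The overlapping windows of the internal CBX5 starts held the same match. SETDB2 carried CCAAT on both strands of its promoter, once 94 bases before the start, and the match on the other strand lies outside the printed stretch. The E-box CACGTG is bound by MYC and USF factors among others. It was found in 4 of the 13 windows, in 3 genes, SETDB1, EHMT2 and CBX5 (8.3% of coding windows). The overlapping SETDB1 windows held the same match.

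The other motifs with a match each marked 1 or 2 genes. The CREB site TGACGTCA stood 116 bases before the SUV39H2 start (2.3% of coding windows); both matches to its shorter form TGACGT in the group lie within it (8.9% of coding windows). SUV39H2 also held the YY1 letters AAGATGGC after its start (3.5%). The NRF1 letters GCGCATGC lay 70 bases before the CBX5 start (3.7%). CBX3 held the E2F letters TTTGGCGC across its start (0.8%) and an ETS match CCGGAAG, as did SETDB1 (12.8%). The letters TTTCCCGC (E2F, 2.0% of coding windows), TGANTCA (AP-1, 6.2%), TATAAA (9.5%) and ACTACAA (ZNF143, 2.8%) were in none of the 13 windows. Among coding windows with a summit, their shares were 2.6%, 5.0%, 5.2% and 3.5%, in the same order. All motif results are matches of letters within short windows, and binding was not measured.

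Other genes of the same pathway were given by a list of 22, among them the HUSH silencing complex (TASOR, MPHOSPH8, PPHLN1) with its ATPase MORC2, the SETDB1 cofactor ATF7IP and HP1 partners such as CHAF1A, LBR, ADNP and POGZ. A summit lay within 1000 bp of a start in 20 of the 22, against 65.9% of coding genes. A start is listed for 19 of the 22, and the others were read at either gene end. The median enrichment at those starts was 12.4 and the median of the highest pileup 896, against 11.9 and 768 for all coding genes with a start summit. MORC2 had the highest enrichment near a start, 16.6. UHRF1, which recruits DNA methylation to replicated heterochromatin, had the lowest near a start, 5.00 with a pileup of 835 over a background of 166.2 fragments. UHRF1 has 3 listed starts, with 1 summit near them. Among its 9 summits inside the gene or within 10 kb the highest enrichment was 17.7. MECOM and PRDM16 encode PR-domain transcription factors with reported H3K9 activity. MECOM had no summit near its 3 listed starts. PRDM16 has no listed start, and no summit lay near either of its gene ends. Both had summits elsewhere, 12 for MECOM and 24 for PRDM16 inside the gene or within 10 kb. The highest enrichment among them was 13.4 for MECOM and 14.1 for PRDM16.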

How the data were processed

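ATAC-seq peaks of 12 HT1080 libraries, 4 per collagen concentration, were read from 1 deposited list of 188019 lines with 10 columns and no header. Per the submitters' processing notes, fastp 0.20.0, Bowtie2 2.4.3, SAMtools, deepTools 3.5.0, MACS2 2.2.7.1 and build hg38 were used; their settings are not given in the sources used here. The authors' enrichment column is read as a fold ratio of summit to background, their p and q columns are −log10 values, and their score equals the deposited −log10 q times 10, truncated, in 99.8% of lines. The lowest −log10 q was 1.30.

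Pileup and local background were solved from enrichment, as (pileup + 1)/(background + 1), and p, as a Poisson upper tail. No label states this model. It gave a whole pileup, within 0.05, in 99.96% of lines and was tested on simulated data. Gene bounds, starts and promoter sequences came from RefSeq GRCh38.p14; 15842 of 20037 coding genes, 9 of 10 members and 19 of 22 partners had a listed start, and the others were read at both gene ends. TRIM28 has no entry among the promoter sequences. Exon boundaries were not used. The rule for names was all members, the partners with the highest, the lowest or no start value, and other genes whose start lay by a member's summit; NEU1, ZBTB12, C2, EHMT2-AS1, SLC44A4, HNRNPA1, MZF1-AS1, UBE2M, CHMP2A, SNX11, CAB39L, ARRDC1 and the partners given as examples were named after values were seen. Members, partners and motifs were chosen with earlier results of these data known. Alternatives were other windows, a −log10 q of at least 10, interval overlap and 1 summit per interval. No test was run, because the list has no values per library; how the libraries were combined is not given in the sources used here. Python 3.11.15, numpy 2.4.6, pandas 2.3.3, scipy 1.17.1 and matplotlib 3.10.9 were used.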

Additional observations from a re-analysis of the deposited data

How the results depend on the processing

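The 9 members open at a start stayed 9 within 500 bp or 2.5 kb, at a −log10 q of at least 10 and by interval overlap, and were 8 at either gene end. The 20 partners ranged from 17 at either gene end to 21. The 67 member summits fell to 40 inside the genes only, a setting that removes summits just before a start, such as those of SUV39H2, SETDB2 and EHMT1; the other alternatives gave 48 to 68. The median of the highest enrichment, 12.7, stayed between 12.3 and 12.7. Alternatives chosen after seeing the data, ranking by pileup and other distances for the alternate sequences, gave 9 in place of 7 members above the median and 0 copies with an EHMT2 summit each time. Of 148 further values under alternatives, 26 moved and 122 did not, and CBX3 fell from 10.4 to 4.77 within 500 bp and to 2.65 inside the gene. Moved means a change beyond a fixed fold for the value of a gene, or outside a 95% interval for a share of coding genes. Where a gene lost all its summits no enrichment was counted, as for SUV39H2, SETDB2 and EHMT2 inside the gene only. No paired analysis was possible because the list names no library. Leaving out replicates, DESeq2 and the filter on low counts were not run for the same reason. The list gives no depth per library, so a site not listed is only one not called in that list.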
